A study of Mus musculus with 19 samples.

Results

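Gpr83, Il1rl1, Nrp1, Izumo1r (named Folr4 on the array) and Swap70 were followed over 4 populations of mouse CD4 T cells separated by reporters of IL-2 and Foxp3. The 5 genes were taken by name: every non-control probe whose gene name was one of theirs was included, which gave 7 probes of the 55681 on the array, 3 of them for Il1rl1. Of the 7 probes 5 passed the filter on dim probes, 1 for each gene, so all 5 genes were among the 20620 genes tested. The genes were selected on their processed signals and detection flags in all 4 populations, under the description of surface markers enriched in regulatory T cells (Treg). Their levels and differences are therefore given as descriptions, with no p-values. The data did not bear out the shared description. Gpr83 and Il1rl1 were higher in the Foxp3 reporter-positive cells without the IL-2 reporter, whereas Nrp1 and Izumo1r were not higher with the Foxp3 reporter beyond their spread, and Swap70 was higher with it among cells that also carried the IL-2 reporter. SWAP-70 is moreover a protein of the cell interior, not of the surface.

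The cells came from spleen and lymph nodes of adult female Tg IL-2-GFP x FOXP3mRFP mice on the C57Bl/6 background, so every population, controls included, carried both reporter alleles. GFP reports the gene of IL-2, the T cell growth factor, and RFP reports Foxp3, the transcription factor that defines Treg. There were 5 arrays of GFP-RFP- cells (neither reporter), 5 of GFP+RFP- cells (IL-2 reporter only), 5 of GFP-RFP+ cells (Foxp3 reporter only) and 4 of GFP+RFP+ cells (both reporters, replicates 1, 3, 4 and 5). The labels describe RFP+ samples as regulatory in one field and all 19 samples as conventional in another, and the grouping here follows the reporter colours. They do not say whether replicates came from separate or pooled animals, so the errors given here may describe technical rather than biological variation. The complementary DNA was amplified by a global PCR before labelling.

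Regulatory T cells restrain other T cells and depend on Foxp3 and on IL-2 that they take up from their surroundings. GPR83 is a G protein-coupled receptor found in brain and in Treg. IL1RL1, also called ST2, is the receptor of the alarm cytokine IL-33 and marks tissue Treg, mast cells and type 2 innate lymphoid cells. Neuropilin-1 binds semaphorins and vascular endothelial growth factor and is used to mark Treg of thymic origin in mice. Izumo1r encodes folate receptor 4, a glycolipid-anchored protein that is abundant on Treg and on anergic T cells, and that acts on the egg as the sperm receptor JUNO. SWAP-70 binds phosphoinositides and actin and acts with Rac, and is best known in B cells and mast cells.

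The probes decide which transcripts were seen, so the first 30 bases of each 60-base probe are shown, 5′ to 3′ in lower case, with mm9 positions of the whole probe. The Gpr83 probe lies on the plus strand at chr9:14673871-14673930 and the Izumo1r probe on the minus strand at chr9:14705178-14705237. The 3 Il1rl1 probes lie on the plus strand. The probe at chr1:40504769-40504828 is assigned by the file to the transcript of the short, soluble receptor (NM_010743), which binds IL-33 without signalling. Those at chr1:40520014-40520073 and chr1:40522187-40522246 are assigned to the membrane receptor (NM_001025602). The probes of Nrp1 and Swap70 lie at chr8:131026650-131026709 and chr7:117426705-117426764, both on the plus strand. Exon and untranslated-region annotation of mm9 was not used here.
Gpr83 probe: ctgaactacacgtgtccatgtagattgtaa
Il1rl1 soluble-form probe A_51_P339793: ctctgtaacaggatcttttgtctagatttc
Il1rl1 membrane-form probe A_55_P2027731: ccttacccaaattgccattacagtcgagca
Il1rl1 membrane-form probe A_55_P2027737: gccattgactccttgtgtgttttcttcatg
Nrp1 probe: ttgtggatggtgtaaagttgaaaaaagata
Izumo1r probe: gcctgccactcatctttgacttgtaaatcc
Swap70 probe: gagtgtctgtctgtgtgttcactgtaatca

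Gpr83 and Izumo1r are neighbours. Their probes were 31247 bases apart, and RefSeq (GRCm38.p6) lists 0 genes lying wholly between them. Il1rl1 stands between Il1rl2 and Il18r1, receptors of the same interleukin-1 receptor family. The soluble-form Il1rl1 probe ended 15185 bases before the first membrane-form probe, and the membrane-form probes were 2113 bases apart. GC content was 35% for the Gpr83 probe and for each Il1rl1 probe, 36.7% for Nrp1, 45% for Swap70 and 53.3% for Izumo1r.

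The arrays differed in brightness between populations, which touches every level below. Between 37.8% and 44.9% of probes were well above background on GFP-RFP- arrays, 30.2% to 41.1% on GFP+RFP- arrays, 22% to 39.4% on GFP-RFP+ arrays and 26.1% to 38.1% on GFP+RFP+ arrays. Levels are given as processed signal, the scanner intensity after background subtraction, which carries no scaling between arrays, and as relative level, its log2 minus the log2 of the array's 75th percentile over the 6612 probes above background on every array. That percentile was lower by a mean log2 difference of -1.19 in GFP-RFP+ than in GFP-RFP- arrays. It differed by -1.25 between GFP+RFP+ and GFP+RFP- arrays. The reporter genes themselves were poorly resolved. Foxp3 was above background on all 19 arrays but bright on 1, GFP-RFP+ replicate 3, at a processed signal of 13968, while the other GFP-RFP+ arrays lay at 19.3 to 81.7 and the GFP-RFP- arrays at 42.5 to 76. Its relative level differed by 2.55 ± 1.10 (SE) between GFP-RFP+ (n = 5) and GFP-RFP- (n = 5), limma adjusted p = 0.19. Il2 passed background on 2 of 5 arrays without either reporter, 2 of 5 with the IL-2 reporter alone, 0 of 5 with the Foxp3 reporter alone and 1 of 4 with both. In bulk RNA, fewer cells expressing a gene and less of its RNA per cell cannot be told apart.

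The population with the Foxp3 reporter alone was the one in which Gpr83 was found. Its probe passed background on 4 of the 5 arrays of these GFP-RFP+ cells. It did so on 1 of 5 arrays in GFP+RFP- cells and on 0 of 5 and 0 of 4 in the GFP-RFP- and GFP+RFP+ populations. In GFP-RFP+ cells its processed signals for replicates 1 to 5 were 4.65, 732, 1816, 2355 and 40.7. In GFP-RFP- cells they were 5.86, 4.67, 6.62, 3.89 and 2.75. In GFP+RFP- cells they were 17, 5.24, 21.8, 3.14 and 595, and in GFP+RFP+ cells (replicates 1, 3, 4 and 5) 6.43, 3.48, 2.69 and 2.64. The bright arrays were 3 from GFP-RFP+ and 1 from GFP+RFP- cells, and all other arrays lay at 40.7 or less. The largest step in the sorted signals, from 40.7 to 595, was 14.6-fold.

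In relative level Gpr83 averaged -4.84 ± 3.66 (SD, n = 5) in GFP-RFP+ cells and -11.67 ± 0.33 (SD, n = 5) in GFP-RFP- cells, a difference of 6.83 ± 1.47 (SE). The groups did not overlap in relative level. They overlapped in processed signal, because GFP-RFP+ replicate 1, which had the fewest probes above background (22%), was below background for Gpr83. As the probe was below background on every GFP-RFP- array, that difference has no measured size. The array floor is the lowest signal of a probe above background on that array. Against it Gpr83 was 27.9-fold higher in GFP-RFP+ than in GFP-RFP- cells. The size depended on the floor and background: the log2 difference was 3.4 with a common floor of -7.81 and 4.23 with normexp background correction. Against the array floor Gpr83 was 19.3-fold higher in GFP-RFP+ than in GFP+RFP+ cells, where the mean relative level was -10.52 ± 0.81 (SD, n = 4). With normexp GFP+RFP+ minus GFP-RFP+ cells gave -2.69. The mean in GFP+RFP- cells was -9.24 ± 2.84 (SD, n = 5) and rested on replicate 5. The difference of GFP+RFP+ from GFP+RFP- cells was -1.28 ± 1.56 (SE), which was -0.09 without that array and turned to 0.29 with normexp background correction. Leaving the array out also lowered the difference from GFP-RFP- cells from 2.43 to 1.23. In order of level GFP-RFP+ stood highest, then GFP+RFP-. The remaining populations were below background throughout and have no order, and GFP+RFP- arrays overlapped with those of each neighbour.

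**Figure D1:**
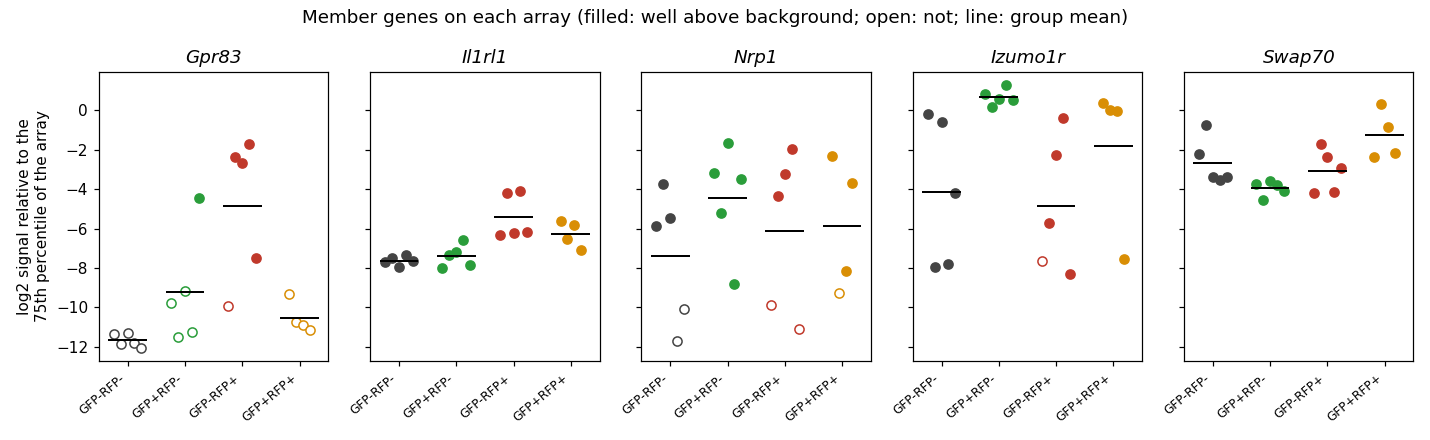
Relative level of each of the 5 genes on every array (log2 processed signal minus the array's 75th percentile), by population, with bars at the group means and filled points where the probe was well above background. Gpr83 points are filled on 4 GFP-RFP+ arrays and 1 GFP+RFP- array, Il1rl1 points lie close together outside the GFP-RFP+ group, and Nrp1 and Izumo1r points split into bright and dim arrays.

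Il1rl1 was the other gene that was higher in GFP-RFP+ cells, by a smaller margin and from a single probe. Probe A_55_P2027737, for the membrane form, was above background on all 19 arrays. Its processed signals in GFP-RFP+ cells were 57.5, 210, 156, 454 and 101 for replicates 1 to 5. The GFP-RFP- signals were 73, 95.3, 68.5, 85.6 and 57.3, and the GFP+RFP- signals were 58.9, 93.3, 87.4, 80.3 and 58.1. The GFP+RFP+ signals were 82.8, 63.1, 89.8 and 44.5. Of the GFP-RFP+ arrays 4 exceeded every array of the other populations, and replicate 1 lay among them.

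On the relative scale Il1rl1 averaged -5.40 ± 1.15 (SD, n = 5) in GFP-RFP+ cells and -7.63 ± 0.23 (SD, n = 5) in GFP-RFP- cells, a difference of 2.23 ± 0.50 (SE) with no overlap. In processed signal these groups overlapped. GFP+RFP+ cells averaged -6.27 ± 0.66 (SD, n = 4) against -7.39 ± 0.55 (SD, n = 5) in GFP+RFP- cells, a difference of 1.12 ± 0.54 (SE) whose arrays overlapped. That value was smaller than the shift of the 75th percentile (-1.25). The mean log2 processed signal of Il1rl1 was thus not higher in GFP+RFP+ than in GFP+RFP- cells. With other scalings of the arrays the difference of GFP-RFP+ from GFP-RFP- cells lay between 1.89 and 4.01, above 0 each time. In relative level, which follows the scaling, the order from low to high was GFP-RFP-, GFP+RFP-, GFP+RFP+ and GFP-RFP+, and each neighbouring pair overlapped.

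The remaining Il1rl1 probes did not detect the transcript on most arrays. The soluble-form probe was above background on 0 of 19 arrays, with processed signals of 2.9 to 13.6. The second membrane-form probe, 2113 bases upstream of the bright one, was above background on 1 array, GFP+RFP+ replicate 3, at 27.7, and read 2.7 to 11.8 on the others. The probes assigned to the same transcript thus disagreed on whether it was detected on every array but that one, and neither dim probe showed the GFP-RFP+ pattern.

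**Figure D2:**
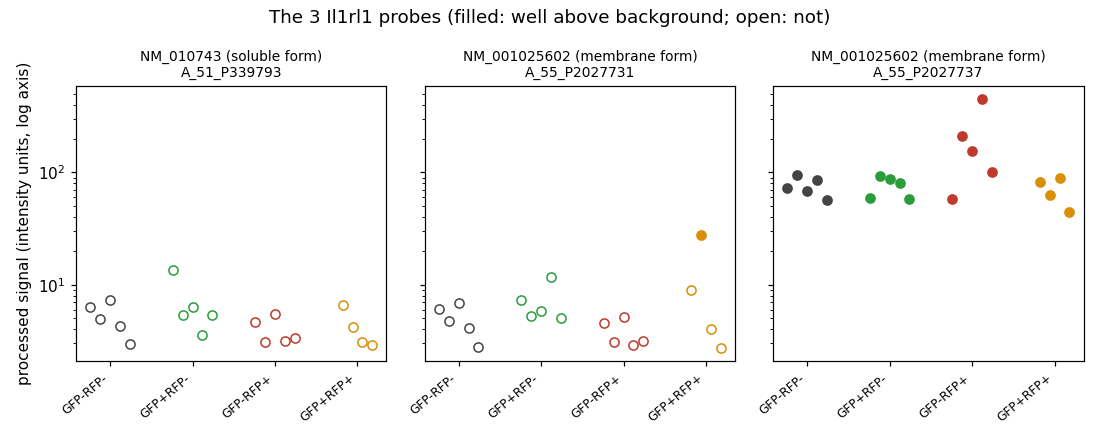
Processed signal (intensity units, log axis) of the 3 Il1rl1 probes on each array, by population, filled where well above background. The soluble-form probe is open on all arrays, the upstream membrane-form probe is filled on 1 GFP+RFP+ array, and the downstream membrane-form probe is filled on all 19, highest in GFP-RFP+ replicate 4 at 454.

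Nrp1, the semaphorin receptor, was bright or dim array by array in every population and showed no separation by either reporter. Detection reached 5 of 5 arrays with the IL-2 reporter alone, 3 of 5 with neither reporter, 3 of 5 with the Foxp3 reporter alone and 3 of 4 with both. Processed signals were 266, 1298, 374, 4.06 and 10.7 in GFP-RFP- cells and 1637, 418, 4027, 17.3 and 1183 in GFP+RFP- cells. They were 4.8, 185, 1253, 1949 and 3.33 in GFP-RFP+ cells and 815, 9.42, 17.7 and 457 in GFP+RFP+ cells (replicates 1, 3, 4 and 5). No array lay between 17.7 and 185, a 10.5-fold step, and every population had arrays on both sides of it.

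Mean relative levels of Nrp1 were -7.37 ± 3.37 (SD, n = 5) in GFP-RFP-, -6.11 ± 4.11 (SD, n = 5) in GFP-RFP+, -5.88 ± 3.37 (SD, n = 4) in GFP+RFP+ and -4.46 ± 2.74 (SD, n = 5) in GFP+RFP- cells, in rising order. Each step in this order was smaller than the SD of its groups. The Foxp3 reporter difference was 1.26 ± 2.06 (SE) without the IL-2 reporter and -1.41 ± 2.19 (SE) with it. Within the first slide the former was -0.90.

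Izumo1r, which encodes folate receptor 4, was highest with the IL-2 reporter alone, in cells without the Foxp3 reporter. Processed signals in GFP+RFP- cells were 26883, 17339, 18725, 18825 and 19014, all far above background and close together. In GFP-RFP- cells they were 13245, 69.7, 10971, 61 and 632. In GFP-RFP+ cells they were 22.9, 73.1, 2436, 5966 and 22.9, of which replicate 1 was not above background, and in GFP+RFP+ cells 5369, 5858, 4919 and 32.2. Every GFP+RFP- array exceeded every array of the other 3 populations in processed signal, and each of those populations mixed bright arrays with arrays at or below 73.1.

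The mean relative level of Izumo1r was 0.68 ± 0.41 (SD, n = 5) in GFP+RFP- cells and -4.16 ± 3.74 (SD, n = 5) in GFP-RFP- cells, a difference of 4.84 ± 1.89 (SE) with no overlap. It was above 0 under each alternative setting, from 1.12 within the first slide to 8.61 within the second. Between GFP+RFP+ cells (-1.80 ± 3.82, SD, n = 4) and GFP+RFP- cells the difference was -2.48 ± 2.00 (SE), with overlap in relative level but not in processed signal. It was -0.57 without GFP+RFP+ replicate 5. GFP-RFP+ cells averaged -4.86 ± 3.44 (SD, n = 5), which differed from GFP-RFP- cells by -0.70 ± 1.89 (SE). This last difference changed sign with the scaling of the arrays, between -0.70 and 0.60, and lay at -4.55 within the first slide. All neighbours in the order GFP-RFP+, GFP-RFP-, GFP+RFP+ and GFP+RFP- overlapped.

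Swap70, the actin and Rac regulator, was above background on all 19 arrays, and its order of populations was unlike that of the other genes. Processed signals were 3286, 10404, 1570, 1163 and 1120 in GFP-RFP- cells and 1121, 663, 1048, 559 and 777 in GFP+RFP- cells. They were 246, 1180, 2265, 429 and 944 in GFP-RFP+ cells and 811, 7420, 2830 and 1306 in GFP+RFP+ cells. GFP-RFP- replicate 2 and GFP+RFP+ replicate 3 stood out. The summed relative signal of B cell markers was 1.05 on the former, with 8 of 9 measured genes above background, and 0.155 on the latter, with 6 of 9.

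In relative level Swap70 averaged -3.95 ± 0.37 (SD, n = 5) in GFP+RFP- cells, below both GFP-RFP- (-2.66 ± 1.20, SD, n = 5) and GFP+RFP+ cells (-1.26 ± 1.26, SD, n = 4), with no overlap with either. The margin to GFP-RFP- cells was narrow: the highest GFP+RFP- array lay at -3.58 and the lowest GFP-RFP- array at -3.56. The difference of GFP+RFP- from GFP-RFP- cells was -1.29 ± 0.67 (SE). The difference of GFP+RFP+ from GFP+RFP- cells was 2.68 ± 0.71 (SE). Both pairs overlapped in processed signal. GFP-RFP+ cells averaged -3.08 ± 1.11 (SD, n = 5), and their difference from GFP-RFP- cells, -0.42 ± 0.67 (SE), changed sign with the scaling of the arrays, between -0.42 and 1.37 (-0.29 with normexp, 0.12 with median centring and 1.37 after quantile normalization).

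Within the GFP-RFP+ group the arrays were not ordered as they were for Foxp3. Replicates 3 and 4 had the highest signals of Gpr83, Nrp1 and Izumo1r in that group, and replicates 1 and 5 had the lowest. Replicate 4, with 24.6% of its probes above background, had the highest signal of Gpr83, Il1rl1, Nrp1 and Izumo1r there and the lowest of Foxp3 (19.3). Replicate 3 had by far the highest Foxp3, a Gpr83 signal of 1816 and an Il1rl1 signal of 156. Without replicate 4 the difference of GFP-RFP+ from GFP-RFP- cells was 6.04 for Gpr83 and 1.90 for Il1rl1. Within the 3 slides, with 1 or 2 arrays of each population on a slide, it was 5.01, 9.43 and 7.46 for Gpr83. For Il1rl1 it was 1.55, 3.22 and 2.54.

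**Figure D3:**
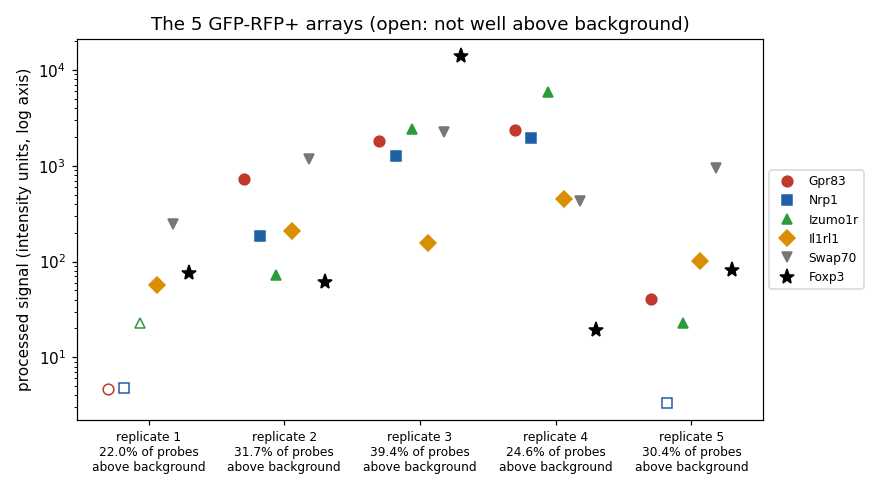
Processed signal (log axis) of the 5 genes and Foxp3 on each of the 5 GFP-RFP+ arrays, one symbol per gene, filled where well above background. Replicate 4 has the highest Gpr83 (2355) and the lowest Foxp3 (19.3), whereas replicate 3 has the brightest Foxp3 (13968).

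Set against all genes, the comparisons that supply these values differed widely in how many genes were called at a limma adjusted p (Benjamini-Hochberg) under 0.05. Between GFP-RFP+ and GFP-RFP- cells 351 of 20620 genes (1.7%) were called, among them 2 of the 5 genes, Gpr83 and Il1rl1, which were chosen with this contrast known. Both were higher in GFP-RFP+ cells, as were 0.47% of all genes by this rule, and 1.23% were called lower. The groups did not overlap in relative level for 6.67% of all genes and for the same 2 of the 5. In processed signal they overlapped for both Gpr83 and Il1rl1. Between GFP+RFP+ and GFP+RFP- cells 42 genes (0.204%) were called, 0.0873% as higher and 0.116% as lower, and 0 of the 5, with no overlap for 7.81% of all genes and for Swap70. In GFP+RFP- against GFP-RFP- cells 2 genes (0.0097%) were called and 0 of the 5, with no overlap for 2.4% of all genes and for Izumo1r and, by a narrow margin, Swap70. In GFP+RFP+ against GFP-RFP+ cells 1 gene (0.00485%) was called and 0 of the 5, with no overlap for 1.02% of all genes and for 0 of the 5. In the order given, the median difference over the 5 genes was 1.26, -1.28, 2.43 and 0.24, beside -0.29, 0.22, -0.02 and 0.41 over all genes. Comparisons in this set share populations, so their values are not independent of each other. The count of 351 genes, with 27.6% higher in GFP-RFP+ cells, was 4030 genes with 87.1% higher when the percentile was taken over all probes, and the median over all genes then moved from -0.29 to 1.02. Without GFP-RFP- replicate 1 the count was 85, and without GFP-RFP+ replicate 4 it was 1166.

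Other surface proteins of Treg did not pass the test. Of 21 listed genes, all with probes on the array, 16 had a probe that passed the filter on dim probes. Such genes are called measured, here and in every other list. Among the 16, limma called 0 in any of the 4 comparisons at an adjusted p under 0.05. In simulated data for GFP-RFP+ minus GFP-RFP- cells, 40% of genes changed by a log2 of 4 were called. A count of 0, here and in the lists below, therefore does not exclude differences of that size. In GFP-RFP+ minus GFP-RFP- cells 9 lay above 0 and 7 below, with a median of 0.14, and 1 had an unadjusted p under 0.05. In GFP+RFP+ minus GFP+RFP- cells 11 lay above 0 and 5 below, with a median of 0.69, and 2 had an unadjusted p under 0.05. Tnfrsf9, which encodes the costimulatory receptor 4-1BB, differed by 0.77 ± 0.32 (SE, limma adjusted p = 0.18) in the first of these comparisons and by 1.13 ± 0.34 (SE, limma adjusted p = 0.13) in the second. Both values were smaller than the shifts of the 75th percentile (-1.19 and -1.25). The mean log2 processed signal of Tnfrsf9 was thus not higher with the Foxp3 reporter. Icos, a costimulatory receptor of the CD28 family, differed by -3.48 ± 1.74 (SE, limma adjusted p = 0.24) and -5.31 ± 1.85 (SE, limma adjusted p = 0.17).

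**Figure D4:**
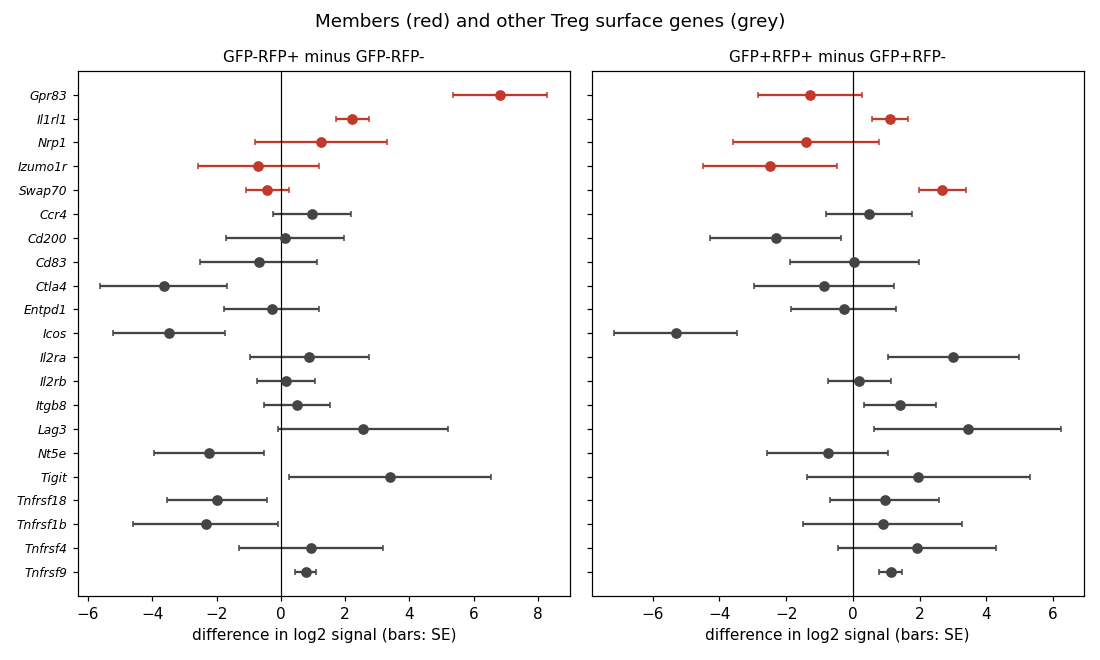
Differences in log2 relative level with standard errors for the 5 genes (red) and 16 other Treg surface genes (grey), GFP-RFP+ minus GFP-RFP- on the left and GFP+RFP+ minus GFP+RFP- on the right. Gpr83 lies at 6.83 on the left and -1.28 on the right (0.29 with normexp background correction), and Icos lies below 0 in both panels.

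Of 20 listed Treg genes for intracellular and secreted proteins 15 were measured and limma called 0 in each comparison. In GFP-RFP+ minus GFP-RFP- cells 7 lay above 0 and 8 below, with a median of -0.04, and 3 had an unadjusted p under 0.05. The smallest p there belonged to Tgfb1, a suppressive cytokine, at -4.92 ± 1.91 (SE, limma adjusted p = 0.15), followed by Foxp3. With the IL-2 reporter the median was -0.07, and Tgfb1 differed by -3.61 ± 2.02 (SE, limma adjusted p = 0.36) and Irf4, a transcription factor of effector Treg, by -4 ± 2.45 (SE, limma adjusted p = 0.40).

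Genes around each receptor were also read, and limma called 0 of them in each comparison. For IL-33 receptor signalling 12 of 19 genes were measured, with 3 above 0 and 9 below (median -0.63) between GFP-RFP+ and GFP-RFP- cells, where Il1rl1 itself was higher. Of the 12, 1 had an unadjusted p under 0.05 there. It was Traf6, the ubiquitin ligase downstream of the receptor, which was detected on 4 of 5 arrays of GFP-RFP- cells but on 0 of 5 from GFP-RFP+ cells. Against the array floor Traf6 was 15.3-fold lower (limma adjusted p = 0.068). Tab2, an adaptor of the kinase TAK1, differed by -2.84 ± 1.54 (SE, limma adjusted p = 0.28). With the IL-2 reporter Irak4, the first kinase of the pathway, was 17.9-fold lower against the array floor (0 of 4 against 5 of 5 arrays above background, limma adjusted p = 0.19). Irak2 there differed by 0.79 ± 0.34 (SE, limma adjusted p = 0.25). That was less than the shift of the 75th percentile (-1.25), so the mean log2 processed signal of Irak2 was not higher.

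Among 18 measured of 24 neuropilin, semaphorin and plexin genes, 7 lay above 0 and 11 below between GFP-RFP+ and GFP-RFP- cells (median -0.53), and 2 had an unadjusted p under 0.05. The smallest p belonged to Foxo1, a transcription factor of T cell quiescence, at -7.43 ± 1.97 (SE, limma adjusted p = 0.06). For GFP+RFP+ minus GFP+RFP- cells 10 lay above 0 and 8 below (median 0.55). Sema6d there differed by 1.14 ± 0.35 (SE, limma adjusted p = 0.13) and Sema3a, a neuropilin ligand, by 2.23 ± 0.88 (SE, limma adjusted p = 0.21), the 2 of this list with an unadjusted p under 0.05. The value of Sema6d was smaller than the shift of the 75th percentile (-1.25), so its mean log2 processed signal was not higher.

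Of 15 folate receptor and folate metabolism genes 11 were measured, with 4 above 0 and 7 below in both Foxp3 reporter comparisons (medians -1.57 and -0.73). Without the IL-2 reporter 0 of them had an unadjusted p under 0.05. Mthfd1, a folate-interconverting enzyme, differed by -4.47 ± 2.48 (SE, limma adjusted p = 0.29). Ggh, which trims folate polyglutamates, was detected on 3 of 5 arrays of GFP-RFP- cells but on 0 of 5 from GFP-RFP+ cells. Against the array floor Ggh was 2.4-fold lower (limma adjusted p = 0.29). With the IL-2 reporter 3 had an unadjusted p under 0.05, all above 0. Tyms, thymidylate synthase, differed by 1.40 ± 0.58 (SE, limma adjusted p = 0.23).

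For GPR83, whose proposed ligands are peptides of the ProSAAS precursor, 13 of 17 ligand and G protein signalling genes were measured. Of these 1 lay above 0 and 12 below between GFP-RFP+ and GFP-RFP- cells (median -2.52), with 5 at an unadjusted p under 0.05. Arrb2, the beta-arrestin that uncouples such receptors, differed by -4.92 ± 1.61 (SE, limma adjusted p = 0.10), and Gpr171, a receptor of another ProSAAS peptide, by -4.82 ± 1.72 (SE, limma adjusted p = 0.13). For GFP+RFP+ minus GFP+RFP- cells 5 lay above 0 and 8 below (median -0.60), again with 5 at an unadjusted p under 0.05. Arrb2 differed by -5.16 ± 1.71 (SE, limma adjusted p = 0.15) and the receptor kinase Grk6 by -6.12 ± 2.02 (SE, limma adjusted p = 0.15).

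All 18 listed genes of the SWAP-70 family and of Rac and actin regulation were measured. Of these 2 lay above 0 and 16 below in both Foxp3 reporter comparisons, with medians of -2.95 and -1.73, and 8 and 3 of them had an unadjusted p under 0.05. Dock2, the Rac activator of lymphocyte migration, differed by -5.31 ± 1.42 (SE, limma adjusted p = 0.061) and Pik3r1, a regulatory subunit of phosphoinositide 3-kinase, by -4.84 ± 1.78 (SE, limma adjusted p = 0.13) without the IL-2 reporter. With it Wipf1, a partner of the actin regulator WASP, differed by -5.63 ± 1.82 (SE, limma adjusted p = 0.15) and Rhoa by -2.37 ± 0.81 (SE, limma adjusted p = 0.16). Over all 7 lists, 103 of 134 genes were measured. Of these 20 had an unadjusted p under 0.05 between GFP-RFP+ and GFP-RFP- cells (3 higher and 17 lower). Of all 20620 genes 4665 did (2146 higher and 2519 lower). Between GFP+RFP+ and GFP+RFP- cells 17 of the listed genes did (9 higher and 8 lower), beside 3592 of all genes (2550 higher and 1042 lower). Leaving out GFP-RFP+ replicate 3 gave 6 limma calls among the listed genes, all lower in GFP-RFP+ than in GFP-RFP- cells, among them Arrb2, Dock2, Foxo1, Gpr171 and Rock1. Leaving out GFP+RFP- replicate 1 or GFP-RFP- replicate 1 gave Traf6 alone, GFP+RFP- replicate 2 Foxo1, GFP+RFP+ replicate 5 Dock2, and GFP-RFP- replicate 4 Pik3r1. For the IL-2 reporter the numbers at an unadjusted p under 0.05 were 7 in cells without the Foxp3 reporter and 5 in cells with it, beside 1059 and 1114 of all genes.

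Marker genes of other cells were read on the same arrays, because Il1rl1 and Swap70 are not particular to T cells. All 15 T cell identity genes were measured, and 11 to 15 of them were above background on each array. All 11 listed genes of mast cells, basophils and type 2 innate lymphoid cells had probes on the array, and 4 passed the filter on dim probes. Of these 4 at most 1 was above background on any RFP+ array, against 2 to 4 on GFP-RFP- arrays and 0 to 4 on GFP+RFP- arrays. Nmur1, a receptor of type 2 innate lymphoid cells, was above background on none. The summed relative signal of the 4 measured genes was 0.00189 to 0.0937 in GFP-RFP+ and 0.0157 to 0.635 in GFP-RFP- cells.

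Of 10 B cell genes 9 were measured, with 5 to 8 above background on GFP-RFP-, 6 to 8 on GFP+RFP-, 3 to 8 on GFP-RFP+ and 5 to 6 on GFP+RFP+ arrays. Their summed relative signals were 0.347 to 2.89, 0.482 to 3.45, 0.182 to 1.78 and 0.155 to 1.22 in that order. In GFP-RFP+ minus GFP-RFP- cells 4 of the 9 lay above 0 and 5 below (median -0.40), and at an unadjusted limma p under 0.05 there were 2 higher and 1 lower. The higher ones were Blnk, a B cell adaptor, at 2.11 ± 0.89 (SE, limma adjusted p = 0.18) and Ebf1, a B lineage transcription factor, at 1.81 ± 0.76 (SE, limma adjusted p = 0.18). Cd79b, of the B cell receptor, was lower in GFP-RFP+ than in GFP-RFP- cells by -6.34 ± 1.51 (SE, limma adjusted p = 0.043), a call that held in 7 of the 19 fits that left out 1 array (limma adjusted p of 0.0015 to 0.11). Of 12 myeloid and dendritic cell genes 10 were measured, with summed relative signals of 10 to 26.6 in GFP-RFP+ against 9.83 to 12.1 in GFP-RFP- cells, and 16 to 34.7 in GFP+RFP+ against 9.79 to 14.9 in GFP+RFP- cells. The brightest of these probes was that of Itgam, so the sums mostly follow it. Its mean relative level was 3.86 in GFP-RFP+ cells against 2.69 in GFP-RFP- cells, a difference of 1.17 ± 0.37 (SE, limma adjusted p = 0.094). With the IL-2 reporter Itgam differed by 1.12 ± 0.39 (SE, limma adjusted p = 0.17). The 75th percentile by which arrays were scaled differed by -1.19 and -1.25 in these comparisons. The mean log2 processed signal of Itgam was thus not higher with the Foxp3 reporter in either. The signalling adaptors Tyrobp and Fcer1g lay below 0 in GFP-RFP+ minus GFP-RFP- cells. Tyrobp was detected on 0 of 5 against 4 of 5 arrays (122-fold lower against the array floor, limma adjusted p = 0.12). Fcer1g differed by -5.09 ± 1.67 (SE, limma adjusted p = 0.10). Itgax and Clec9a, which define dendritic cells, were above background on no array. The myeloid sums of GFP-RFP+ replicates 1 to 5 were 22.3, 26.6, 14.4, 10 and 20. Replicate 4, with the most Gpr83 and Il1rl1, had the lowest, and replicate 2, with the second highest Il1rl1 (210) and a Gpr83 signal of 732, had the highest. The part of B cells, myeloid cells, mast cells, basophils and type 2 innate lymphoid cells in the levels of the 5 genes was not tested.

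The genes whose pattern over the 19 arrays was most like that of a gene studied were taken by Pearson r among 11852 genes with a usual symbol. All arrays share 1 scaling and the amplification, so r is a description. Most like Gpr83 were Arl16 (r = 0.842), Bckdk (0.754), Gdpd5 (0.746), Clasrp (0.706) and Nadk2 (0.681). Most like Il1rl1 were Zbtb26 (r = 0.875), S100a1 (0.863) and again Bckdk (0.839), a kinase of branched-chain amino acid breakdown. Mvp (r = 0.771), Kdm6b (0.762) and Xrcc5 (0.742) were most like Nrp1. Tmem44 (r = 0.817), Nudt4 (0.728) and Osbpl11 (0.712) were most like Izumo1r. Baiap2 (r = 0.841), Fcrla (0.83), a gene of B cells, and Ace (0.801) were most like Swap70. None of these was another of the 5 genes, and Foxp3 was not among them.

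The sequence upstream of the transcription start was searched for 3 short motifs on both strands, in the 250 bases before each start listed in RefSeq (GRCm38.p6), for 6 starts of the 5 genes including 2 of Il1rl1. The forkhead motif GTAAACA (reverse TGTTTAC), of the family that includes Foxp3, was present in 2 of the 6 windows, the second Il1rl1 start and Swap70, and in 3.17% of 32851 windows over all genes. The NFAT core GGAAAA (reverse TTTTCC) was present in 0 of 6 and in 20.4% of all windows. The core of the cyclic AMP response element, TGACG (reverse CGTCA), was present in 2 of 6, Gpr83 and the second Il1rl1 start, and in 17.8% of all windows. The windows of 3 starts are shown 5′ to 3′ along the gene with motif letters in capitals: those of the pair of genes higher in GFP-RFP+ cells, and that of Izumo1r, the neighbour of Gpr83 with another pattern. They lie at chr9:14859960-14860209 on the plus strand, chr1:40439379-40439628 on the plus strand and chr9:14903768-14904017 on the minus strand. A match is a string of letters, and no binding was measured.
Gpr83: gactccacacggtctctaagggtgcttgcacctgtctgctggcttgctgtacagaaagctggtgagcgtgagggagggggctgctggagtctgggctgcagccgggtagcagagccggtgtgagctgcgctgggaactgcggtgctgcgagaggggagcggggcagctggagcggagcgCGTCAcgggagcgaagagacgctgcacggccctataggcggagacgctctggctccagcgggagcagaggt
Il1rl1, second start: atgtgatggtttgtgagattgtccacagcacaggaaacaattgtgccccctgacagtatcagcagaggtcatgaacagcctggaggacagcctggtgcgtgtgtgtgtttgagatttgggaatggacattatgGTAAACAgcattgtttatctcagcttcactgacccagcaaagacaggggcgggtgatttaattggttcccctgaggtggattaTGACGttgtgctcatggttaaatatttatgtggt
Izumo1r: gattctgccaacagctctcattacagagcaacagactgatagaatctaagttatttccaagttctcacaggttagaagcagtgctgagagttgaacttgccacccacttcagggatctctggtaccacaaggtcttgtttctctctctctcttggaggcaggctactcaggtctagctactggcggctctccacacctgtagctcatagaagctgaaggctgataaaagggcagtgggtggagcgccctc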

How the data were processed

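One-colour arrays (19) measured RNA of the 4 reporter populations. The deposited scanner files hold linear intensity values and 0 or 1 detection flags made with Agilent Feature Extraction 10.7.3.1, background-subtracted and detrended within each array without scaling between arrays, per the file headers. The log2 values of the series table deposited by the authors were an alternative. How they were normalized is not given in the sources read here, their column medians were 3.21 to 3.226, and they correlated with log2 scanner signal at r = 0.949 to 1, so the direction was that of the signal. Per the labels' protocols, RNA was purified on columns and amplified by a global PCR.

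Control spots (3671 of 62976 per array) and 3296 outlier spots were left out. Processed signals were taken as log2 minus each array's 75th percentile over the 6612 probes above background on all arrays, since at most 44.9% of probes were detected on any array. A probe needed to pass background on 4 or more arrays (28101 did), and the probe of highest mean represented a gene. Names came from RefSeq accessions for 27235 probes and from the files for 28446. One model of all 4 groups was fitted (limma 3.58.1, R 4.3.3, version 1.17.8 of data.table) and tested on simulated data. There, in GFP-RFP+ minus GFP-RFP- cells, it called 14% of changed genes at a log2 size of 2. It called 40% at 4, 84% at 8 and 98% at 12. Calls needed a Benjamini-Hochberg adjusted p under 0.05. The number of arrays limits the precision. The 5 genes and the lists were chosen with earlier results of these data known. From each list the 2 genes with the smallest p were named (some are not reported here), and by r the 5 genes most like Gpr83 and 3 most like each other gene. Alternatives were other scalings (all-probe percentile, normexp with an offset of 50, quantile, median, the authors' series values), filters, averaging over a gene's probes, a replicate or slide block, fits within slides, array weights, a floor of -7.81, only the groups compared, another detection flag and leaving out each array. Scan day as a block and leaving out arrays under 30% detected were added after seeing the data. Motifs were searched with Python 3.11.15 and pandas 2.3.3, and figures drawn with matplotlib 3.10.9.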

Additional observations from a re-analysis of the deposited data

Results flagged for a closer look

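Of 28 sets of arrays examined (7 probes in 4 populations), 2 held an array far from the others, where chance gives about 1 in 20 sets. Izumo1r on GFP+RFP+ replicate 5 had a relative level of -7.53, whereas the nearest array of that population was at -0.05. The upstream membrane-form probe of Il1rl1 on GFP+RFP- replicate 4 was at -9.36 against -10.99 for the nearest array, and it was below background on both.

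For Gpr83 and Swap70 the fitted differences pointed opposite ways in the 2 arms of the design. For Gpr83 every GFP-RFP+ array lay above the mean of GFP-RFP- cells and every GFP+RFP+ array below the mean of GFP+RFP- cells. The fitted Foxp3 reporter differences without and with the IL-2 reporter were 8.1 apart on the log2 scale, and so were the IL-2 reporter differences without and with the Foxp3 reporter, which are the same quantity. That value is not a measured size, because Gpr83 was below background on every GFP-RFP- and GFP+RFP+ array and on GFP-RFP+ replicate 1. The direction in the arm with the IL-2 reporter is not settled either. GFP+RFP+ minus GFP+RFP- cells gave -1.28 as reported, 0.29 with normexp and -0.09 without GFP+RFP- replicate 5. Within the second slide the difference was 0.5. The probe was below background on every array of both populations there, so that value gives no direction. For Swap70 the IL-2 reporter differences differed by -3.1, being below 0 in cells without the Foxp3 reporter and above 0 in cells with it. Neither difference was tested, because the genes were chosen with these values known.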

How the results depend on the processing

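Gpr83 was higher in GFP-RFP+ than in GFP-RFP- cells under all 17 alternatives that gave a value (3.4 to 9.43) and Il1rl1 under all 18 (1.55 to 4.01). Swap70 was higher in GFP+RFP+ than in GFP+RFP- cells under 18 of 18 (1.89 to 3.43), and Izumo1r in GFP+RFP- than in GFP-RFP- cells under 17 of 17 (1.12 to 8.61). The values that moved by over 1 SD were Il1rl1 in GFP-RFP+ minus GFP-RFP- cells at 3.53, 3.63 and 4.01 and Swap70 there at 0.89, 1.37 and 1.13 (all-probe percentile, quantile normalization and series table), and Il1rl1 in GFP+RFP+ minus GFP+RFP- cells at 2.08 (series table). Within the first slide Izumo1r differed by -4.55 in GFP-RFP+ minus GFP-RFP- cells, and within the second by 8.61 in GFP+RFP- minus GFP-RFP- cells. The second and the last slide each hold 1 or 2 arrays a population. Within the last slide Gpr83 and Izumo1r differed by -6.67 and -8.06 in GFP+RFP+ minus GFP+RFP- cells. Gpr83 and Nrp1 differed there by 7.58 and 6.61 in GFP+RFP- minus GFP-RFP- cells, and Izumo1r by -3.19 in GFP+RFP+ minus GFP-RFP+ cells. The filter for detection on all arrays left out Gpr83, Nrp1 and Izumo1r. Leaving out 1 array at a time gave 6.04 to 8.1 for Gpr83 and 1.9 to 2.46 for Il1rl1 in GFP-RFP+ minus GFP-RFP- cells, and turned the sign of small differences, as for Izumo1r (-1.83 to 0.28) and Swap70 (-0.76 to 0.06).

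The number of genes called followed the processing, and the cause was not tested. Counts are given in the order GFP-RFP+ against GFP-RFP-, GFP+RFP+ against GFP+RFP-, GFP+RFP- against GFP-RFP- and GFP+RFP+ against GFP-RFP+ cells (the last), where the reported ones are 351, 42, 2 and 1. They were 4030, 10, 2 and 11 with the percentile over all probes, 4749, 4888, 5 and 8 with normexp, 3520, 26, 2 and 2 with quantile normalization, 2202, 16, 2 and 5 with median centring, and 3643, 23, 2 and 2 in the series table. The share higher in the first comparison was 27.6% as reported and 87.1%, 84.3%, 82.2%, 74.6% and 81.6% with these 5 scalings. In the second it was 42.9% as reported and 0%, 94.2%, 26.9%, 0% and 21.7%. Without the filter the second count was 108, and with detection on all arrays the counts were 600, 748, 0 and 2. The mean of a gene's probes gave 6 in the last. Slide as a block gave 1236, 138, 1 and 2. Within the first slide 87, 0, 0 and 0 were called, and within the other slides 0 in each, where 1496 to 4456 genes had an unadjusted limma p under 0.05. With only the compared groups the second and the last were 74 and 3. Array weights gave 1062, 1810 and 9 in the first 3, and the common floor gave 697, 485, 7 and 11. Leaving out arrays under 30% detected gave 27 in the first and 9 in the last, and scan day as a block gave 12, 1 and 3 in all but the first. Leaving out 1 array at a time gave 85 to 1166, 2 to 300, 1 to 12 and 1 to 20, with the extremes of the second from GFP+RFP+ replicate 4 and GFP+RFP- replicate 4, the 12 from GFP-RFP- replicate 4 and the 20 from GFP-RFP+ replicate 3. Genes of the lists, of which 0 were called as reported, reached 9, 11, 0 and 1 calls at most; Tnfrsf9 and Sema6d were among the 11.

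Whether equal replicate numbers mark paired samples was not settled. Deviations of same-numbered arrays correlated at -0.07 to 0.09 over 27 pairs, and 6 of 19 arrays correlated best with their own number. Arrays on the same slide also had a median r of 0.02 (46 pairs), so values this low cannot exclude pairing. With the replicate block 198 and 8 genes were called in the first and second comparisons. The dim probes limit detection: with the scanner's less strict flag Gpr83 was detected on 3 GFP+RFP- arrays in place of 1.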
